A study of Mus musculus with 4 samples.

Results

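The TNF (tumor necrosis factor) superfamily pairs cell-bound or shed ligands with receptors on the same or neighbouring cells. Its members here were the protein-coding genes whose symbol is Tnfsf (ligand) or Tnfrsf (receptor) followed by a number and an optional letter, a rule that used no measured value. It picked 31 genes, 11 ligands and 20 receptors, of 54532 genes in the count table, 21995 of them protein-coding. Family genes under older symbols, such as *Tnf*, *Cd40* and *Fas*, fall outside the rule and are given as a separate list.

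RNA was sequenced from tumor-associated macrophages (TAMs) of NB9464 tumors, a murine neuroblastoma line with amplified MYCN, in C57BL/6 mice implanted at a few weeks of age, with tumors taken on day 40 and no treatment given. The labels give 2 libraries as SYK WT (M7 and M8) and 2 as SYK KO (M9 and M10). The knockout strain (SykMC-KO) combines floxed *Syk* with Cre recombinase under lysozyme M (*Lyz2*) control, which acts in neutrophils as well as macrophages, and the sources used here do not say whether the wild type controls (SykMC-WT) carry Cre. Cells were enriched with CD11b and F4/80 magnetic beads, although one line of the labels names BMDMs (bone marrow-derived macrophages) as the source of RNA and the series title names an adoptive transfer. Nothing in the labels says that the libraries came from separate animals, so p-values measure the spread between these libraries, which may be technical.

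Ligands of this family assemble as trimers and cluster their receptors. Receptors with a death domain can start apoptosis through *Fadd* and *Casp8*, and some of them, such as *Tnfrsf1a*, also activate NF-kB. Most others recruit TRAF adaptors and activate NF-kB, and decoy receptors bind ligand with little or no signal. In myeloid cells the family is known for inflammation (TNF receptors), osteoclast formation (RANK), support of B cells (BAFF and APRIL) and co-stimulation of T cells (LIGHT, 4-1BB ligand, OX40 ligand, CD30 ligand).

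Total counts ran from 20755886 to 23518045 per library, and the 3 counts taken as the detection floor corresponded to 0.109 to 0.163 CPM (counts scaled to the TMM-normalized library total), a limit that covers counting error only. *Syk* counts were 765 and 569 in SYK WT against 4033 and 2944 in SYK KO, so the deleted gene was higher in the libraries labelled SYK KO (log2 fold change 2.80, adjusted p = 0.000674 by edgeR's quasi-likelihood test), but not when libraries were scaled to 10 macrophage markers (-0.0064) or to 6 pan-leukocyte genes (-0.83). Every direction below is therefore that of the libraries as labelled. *Lyz2* was lower there (8109 and 5115 against 178 and 371 counts). The labelled cell type had its markers in every library, but at unequal levels: all 10 macrophage markers were higher in SYK KO, by a median of 3.01 on the log2 scale, and their summed level was 803 to 1135 CPM in SYK WT against 5702 to 9531 CPM in SYK KO. The 6 pan-leukocyte genes were higher by a median of 3.57, and 6 of 8 fibroblast markers were lower (median -1.49). The fibroblast sum, mostly *Col1a1* and *Col3a1*, was 12822 and 14736 CPM in SYK WT, far above the macrophage sum there. In SYK KO it was 4098 and 5042 CPM, below the macrophage sum. Such sums of different genes do not measure shares of cells. Mitochondrial genes took 2.20% to 2.34% of counts in SYK WT against 6.00% and 15.9% in SYK KO. Genes listed for neuroblastoma cells were mixed: the catecholamine enzymes *Dbh* and *Th* had 0 counts in all libraries, whereas *Hand2* was at 178 to 301 CPM (adjusted p = 0.418) and *Mycn* had 525 to 799 counts and was higher in SYK KO (log2 fold change 0.74, adjusted p = 0.0415). In such bulk samples, fewer cells of a type and less RNA per cell cannot be told apart, and the part of these marker differences in the results below was not tested.

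With TMM normalization, 6 TNF superfamily ligands were higher in the libraries labelled SYK KO and receptors moved both ways, whereas under the macrophage and leukocyte scalings no member was called higher. Of the 11 ligands, 9 passed the expression filter, 6 rose, none fell and 3 did not pass the threshold, an adjusted p under 0.05 over 16451 genes. Of the 20 receptors, 18 passed the filter, 6 rose, 1 fell and 11 did not pass. Among all genes tested, 22.7% were called higher (3729 genes) and 16.7% lower (2747 genes). *Tnfsf4* and *Tnfsf8* passed the filter only through the SYK KO libraries, where they were higher, so the tested ligands are not a neutral choice of the 11. With no filter beyond 1 count, the median log2 fold change was 1.57 over all 11 ligands and 0.78 over all 20 receptors, beside -0.16 over 26596 genes. The ligand median lay below that of the macrophage markers.

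**Figure D1:**
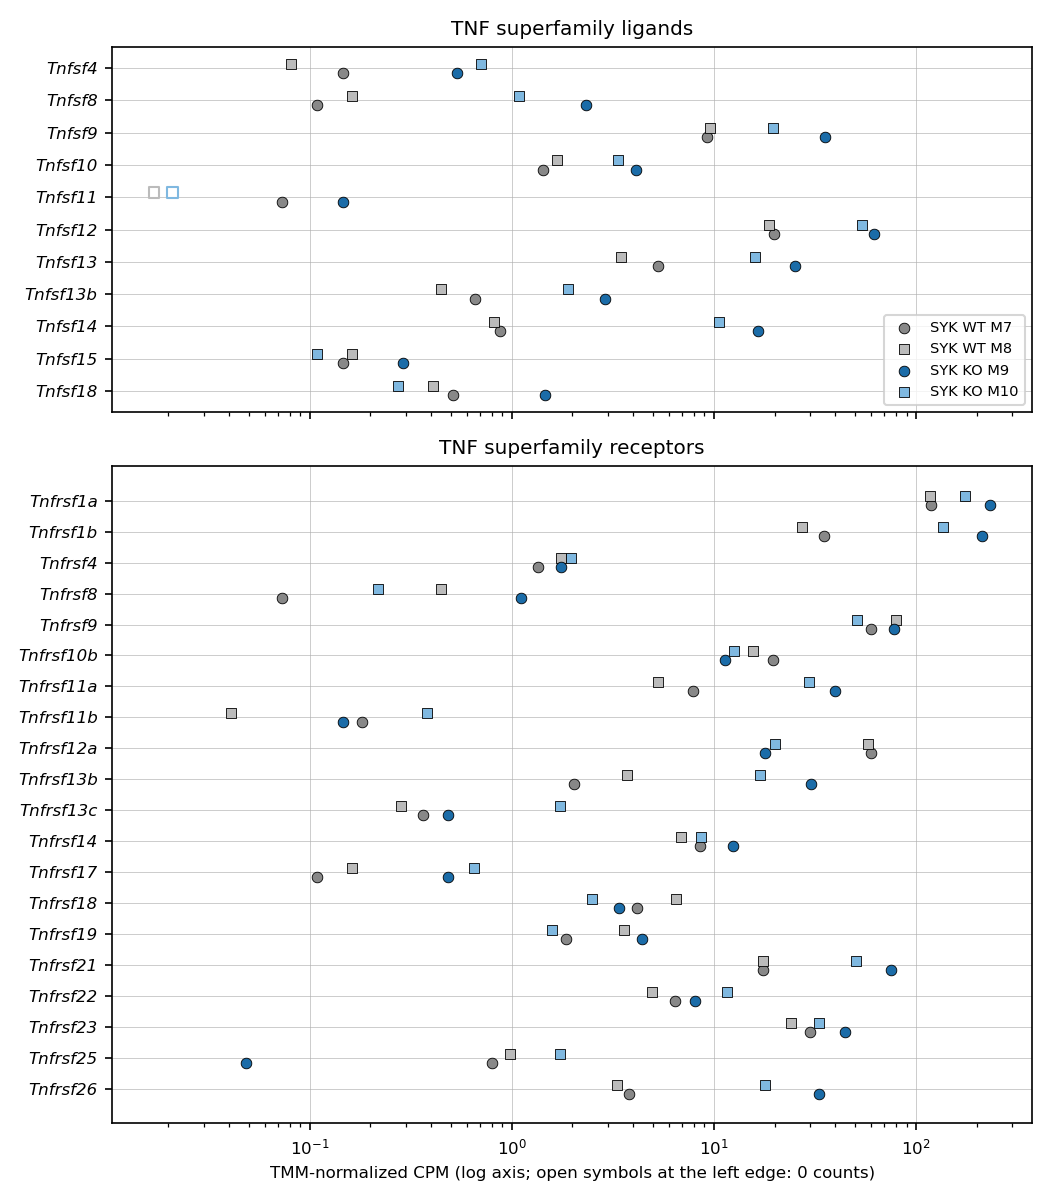
TMM-normalized CPM (log axis) of the 11 ligands (upper panel) and 20 receptors (lower panel), 1 symbol per library, grey for SYK WT and blue for SYK KO, with open symbols at the left edge for 0 counts. Both SYK KO libraries lie above both SYK WT libraries for 8 ligands and 11 receptors and below them for 3 receptors, *Tnfrsf12a* being the receptor that was called lower. Such separation was common, with 38.0% of all genes tested above and 37.2% below. This is the order under TMM only, and the macrophage and leukocyte scalings turn it for most members.

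*Tnfsf14*, with the largest rise of a member, and *Tnfrsf12a*, the 1 member that fell, lie apart on chromosome 17, and the sequence before each start is shown to compare them. Both come from RefSeq on GRCm38.p6, minus strand, read 5' to 3', chr17:57194182-57194431 for *Tnfsf14* (250 bases) and chr17:23677469-23677699 for *Tnfrsf12a* (231 bases, ending where the annotated first exon begins). Capitals mark a match to the AP-1 motif TGANTCA, searched on both strands.
Tnfsf14: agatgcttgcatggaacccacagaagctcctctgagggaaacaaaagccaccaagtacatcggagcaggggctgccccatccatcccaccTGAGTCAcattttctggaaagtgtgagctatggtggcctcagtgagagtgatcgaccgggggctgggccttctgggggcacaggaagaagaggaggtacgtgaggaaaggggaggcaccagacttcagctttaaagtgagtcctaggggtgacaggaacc
Tnfrsf12a: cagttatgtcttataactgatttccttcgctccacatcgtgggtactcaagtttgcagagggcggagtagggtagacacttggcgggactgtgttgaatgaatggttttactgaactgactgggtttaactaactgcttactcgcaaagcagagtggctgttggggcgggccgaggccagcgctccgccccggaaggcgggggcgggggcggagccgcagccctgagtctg

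RefSeq windows of 250 bases before to 50 bases after a start were found for 24 of the 31 members (28 windows of 32851 in all). AP-1 letters stood in 6 of these windows, in *Tnfsf13*, *Tnfsf13b*, *Tnfsf14*, *Tnfrsf8* and *Tnfrsf9*, and in 7.81% of all windows. In the *Tnfsf14* window the match begins at base -160 relative to the start. The NF-kB letters GGANTTTCC and GGGGNTTCC were in 0 of the 28 windows, and in 1.25% and 1.69% of all windows. The ETS letters GAGGAAGT, of the PU.1 type, were in 1 window (*Tnfsf18*) against 3.20% of all windows, the ISRE in 4 (*Tnfrsf1b*, *Tnfrsf14*, *Tnfrsf17* and *Tnfsf13b*) against 3.44%, and TATAAA in 4 against 13.6%. These are descriptions of letters in short windows, and they say nothing of binding.

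Ligands of T cell co-stimulation included the members with the largest differences. *Tnfsf14* (ENSMUSG00000005824, chromosome 17, 57189492 to 57194177), which encodes LIGHT, a ligand of HVEM and of the lymphotoxin beta receptor, had 24 and 20 counts in SYK WT (M7, M8) and 341 and 196 in SYK KO (M9, M10). Its level was 0.844 ± 0.0432 CPM (SD, n = 2) in SYK WT and 13.6 ± 4.15 CPM (SD, n = 2) in SYK KO, 16.0-fold higher (log2 fold change 4.00, standard error [SE] 0.38, adjusted p = 0.00124). The groups were far apart, and without any 1 library the difference stayed between 3.56 and 4.30 on the log2 scale. Under the marker scalings the log2 fold change was 1.15 and 0.34, and neither passed the threshold (adjusted p = 0.172 and 0.641).

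*Tnfsf8* (ENSMUSG00000028362, chromosome 4, 63831308 to 63861347), the ligand of CD30, had 3, 4, 48 and 20 counts in M7 to M10, so the SYK WT libraries were close to the detection floor and the gene was tested only through its SYK KO counts. Its log2 fold change was 3.61 (SE 0.79, adjusted p = 0.0145), and the ratio of summed counts was 13.0 with an exact 95% interval of 5.97 to 33.5 that covers counting error only. The call was lost without M7 (adjusted p = 0.170) and without M8 (adjusted p = 0.150). *Tnfsf9* (ENSMUSG00000035678, chromosome 17, 57105325 to 57107757), the ligand of 4-1BB, had 254 and 235 counts in SYK WT against 732 and 361 in SYK KO. It was 2.93-fold higher, 9.41 ± 0.214 CPM against 27.6 ± 11.2 CPM (SD, n = 2), with M9 above M10 by more than M10 stood above SYK WT on the CPM scale (log2 fold change 1.55, SE 0.31, adjusted p = 0.0108). With library size as the scale, *Tnfsf9* no longer passed (log2 fold change 1.04, adjusted p = 0.0540). Under the macrophage and leukocyte scalings it was called lower (-1.35, adjusted p = 0.0213, and -2.14, adjusted p = 3.07e-05).

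The other co-stimulatory ligands did not pass the threshold. *Tnfsf4*, the ligand of OX40, had 4 and 2 counts in SYK WT and 11 and 13 in SYK KO. The groups did not overlap, but the counts were few (log2 fold change 2.38, adjusted p = 0.0648, ratio of summed counts 5.34, interval 2.13 to 16.0 for counting error). *Tnfsf18*, the ligand of GITR, had 14, 10, 30 and 5 counts (log2 fold change 0.91, adjusted p = 0.454), with both groups overlapping because M10 was lowest and M9 highest. *Tnfsf15*, the ligand of DR3, had 4, 4, 6 and 2 counts and was below the filter. Activated T cells, dendritic cells and neutrophils also make some of these ligands. Of 6 T cell markers, 5 were called higher (list median 3.02 on the log2 scale). Most of their summed level in SYK WT was *Lck*, which did not pass, and without it the sum was 0.610 and 0.911 CPM in SYK WT against 6.94 and 8.83 CPM in SYK KO (4.44 and 5.80 against 11.0 and 14.5 CPM with it). Of 6 dendritic cell markers, 3 were called higher, *Flt3* (3.91, adjusted p = 0.00375), *Xcr1* (4.19, adjusted p = 0.00823) and *Ccr7* (3.39, adjusted p = 0.000941). SYK WT counts were few for *Flt3* (9 and 6) and *Xcr1* (13 and 2). *Clec9a* (adjusted p = 0.0582) and *Fscn1* (adjusted p = 0.114) were higher in both SYK KO libraries without passing. *Zbtb46* was lower in both without passing (-0.19, adjusted p = 0.607). The list median was 2.83, and the sum, mostly *Fscn1*, was 172 to 195 CPM in SYK WT against 239 to 300.1 CPM in SYK KO. The neutrophil markers (4 of 4 tested called higher) summed to 22.5 and 36.2 against 190 and 387 CPM. The part of these cells in the ligand differences was not tested.

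Ligands that act on B cells rose together with TMM normalization, though both had log2 fold changes below 0 under the marker scalings. *Tnfsf13* (ENSMUSG00000089669, chromosome 11, 69682846 to 69685784), which encodes APRIL, had 146 and 85 counts in SYK WT and 523 and 293 in SYK KO, a 4.70-fold difference (4.39 ± 1.32 CPM against 20.7 ± 6.66 CPM, SD, n = 2, log2 fold change 2.23, SE 0.35, adjusted p = 0.00488). *Tnfsf13b* (ENSMUSG00000031497, chromosome 8, 10006467 to 10039072), which encodes BAFF, had far fewer counts, 18 and 11 against 60 and 35. Its log2 fold change of 2.11 (SE 0.60, adjusted p = 0.0326) missed the threshold without M7 (adjusted p = 0.195), without M8 (adjusted p = 0.319) and with library size as the scale (adjusted p = 0.0755).

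*Tnfsf12* (ENSMUSG00000097328, chromosome 11, 69686250 to 69695849), which encodes TWEAK, was the ligand with the highest level per length. Its counts were 547 and 460 in SYK WT and 1278 and 991 in SYK KO, 19.3 ± 0.865 CPM against 58.0 ± 5.69 CPM (SD, n = 2). That difference was large beside the spread of either group (log2 fold change 1.59, SE 0.17, adjusted p = 0.00156). It held for TMM: under the macrophage and leukocyte scalings *Tnfsf12* was called lower (-1.23, adjusted p = 0.0238, and -2.05, adjusted p = 7.1e-06). *Tnfsf12* and *Tnfsf13* are neighbours, and 47.4% and 58.4% of their distinct 31-base words also occur in the readthrough gene *Tnfsfm13*, so reads can be divided among them. Summed into 1 row with *Tnfsfm13*, a choice made after the data were seen, the counts were 916, 844, 2159 and 1573 (log2 fold change 1.49, SE 0.17, adjusted p = 0.00187). An antisense gene, *Tnfsf13os*, had 12 to 51 counts, and the sources used here do not say whether counting used strand.

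The death ligand *Tnfsf10* (TRAIL) had 39 and 41 counts in SYK WT and 85 and 62 in SYK KO. All SYK KO values were above SYK WT, but the difference did not pass (log2 fold change 1.28, adjusted p = 0.0622, and 0.0352 when only genes with at least 10 counts in every library were tested). *Tnfsf11* (RANKL), which drives osteoclast formation, was close to absent with 2, 0, 3 and 0 counts, within the floor of 3 counts in each library.

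Both receptors for TNF itself rose with TMM normalization, though both had log2 fold changes below 0 under the marker scalings, with *Tnfrsf1b* not past the threshold under the macrophage scaling (adjusted p = 0.502). *Tnfrsf1a* (ENSMUSG00000030341, chromosome 6, 125349362 to 125362484), the TNF receptor with a death domain, had 3244 and 2891 counts in SYK WT and 4809 and 3224 in SYK KO. In CPM this was 118 ± 0.442 against 205 ± 40.9 (SD, n = 2), a 1.73-fold difference (log2 fold change 0.79, SE 0.19, adjusted p = 0.0195). The call depended on the scale and the libraries: the adjusted p was 0.373 with library size only, 0.124 without M7 and 0.155 without M8. *Tnfrsf1b* (ENSMUSG00000028599, chromosome 4, 145213463 to 145246870), the TNF receptor without a death domain, had 967, 675, 4358 and 2511 counts. It was 5.55-fold higher, at 31.4 ± 5.51 CPM against 174 ± 52.9 CPM (SD, n = 2, log2 fold change 2.47, SE 0.26, adjusted p = 0.00159). *Tnfrsf1b* thus differed by more than *Tnfrsf1a*, which the ratio within each library, given further on, shows without any scaling.

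*Tnfrsf13b* (ENSMUSG00000010142, chromosome 11, 61126755 to 61149372), which encodes TACI, a receptor for BAFF and APRIL, had the largest log2 fold change of a receptor under TMM with all libraries. It had 56 and 91 counts in SYK WT and 625 and 311 in SYK KO, an 8.25-fold difference (2.87 ± 1.17 CPM against 23.6 ± 9.47 CPM, SD, n = 2, log2 fold change 3.04, SE 0.42, adjusted p = 0.00340). That rank was not fixed, since without M7 the log2 fold change of *Tnfrsf13b* was 2.67 and that of *Tnfrsf26* 2.93. The sister receptors of *Tnfrsf13b* were sparse. *Tnfrsf13c* (BAFF receptor) had 10, 7, 10 and 32 counts, with only M10 clearly higher (log2 fold change 1.75, adjusted p = 0.143, and 0.0115 without M9). *Tnfrsf17* (BCMA), a plasma cell receptor, had 3, 4, 10 and 12 counts and was below the filter. Of the B cell markers, 1 of 4 tested was called higher, *Cd79b* (log2 fold change 4.05, adjusted p = 0.00300). Their sum, mostly *Cd79b* in SYK KO, was 1.59 to 1.82 CPM in SYK WT against 9.08 to 9.59 CPM in SYK KO. Like *Tnfrsf13b*, the sum was higher in SYK KO. The part of B cells in *Tnfrsf13b* was not tested.

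*Tnfrsf11a* (ENSMUSG00000026321, chromosome 1, 105780718 to 105847981), which encodes RANK, the receptor of osteoclast precursors, had 217, 130, 817 and 543 counts. It was 5.24-fold higher in SYK KO (6.60 ± 1.85 CPM against 34.6 ± 7.13 CPM, SD, n = 2, log2 fold change 2.39, SE 0.28, adjusted p = 0.00205). Its ligand *Tnfsf11* was within the floor, as given above, and its decoy *Tnfrsf11b* (osteoprotegerin) had 5, 1, 3 and 7 counts, below the filter (adjusted p = 0.664 when all genes with a count were tested). *Tnfrsf21* (ENSMUSG00000023915, chromosome 17, 43016555 to 43089189), which encodes death receptor 6, had 482 and 431 counts against 1556 and 931. The 2 SYK WT libraries were almost equal, 17.6 ± 0.0240 CPM against 63.1 ± 17.5 CPM in SYK KO (SD, n = 2, log2 fold change 1.85, SE 0.23, adjusted p = 0.00232). Under the leukocyte scaling both *Tnfrsf11a* (-1.23, adjusted p = 0.0112) and *Tnfrsf21* (-1.82, adjusted p = 4.18e-05) were called lower.

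Calls differed within a cluster of closely related receptors on chromosome 7. *Tnfrsf26* (ENSMUSG00000045362, chromosome 7, 143607659 to 143628722) had 105 and 82 counts in SYK WT and 680 and 331 in SYK KO, 7.12-fold higher (3.58 ± 0.347 CPM against 25.5 ± 10.6 CPM, SD, n = 2, log2 fold change 2.83, SE 0.35, adjusted p = 0.00234). The neighbouring TRAIL decoys were higher in both SYK KO libraries but did not pass: *Tnfrsf22* had 177, 122, 167 and 214 counts (log2 fold change 0.79, adjusted p = 0.0971) and *Tnfrsf23* had 818, 591, 917 and 612 (log2 fold change 0.53, adjusted p = 0.0909). *Tnfrsf22* and *Tnfrsf23* share sequence, 25.5% and 26.6% of their 31-base words with each other, so their separate counts are uncertain. Summed into 1 row, also after the data were seen, they passed narrowly (log2 fold change 0.58, SE 0.19, adjusted p = 0.0485).

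*Tnfrsf12a* (ENSMUSG00000023905, chromosome 17, 23675445 to 23677468), which encodes Fn14, the TWEAK receptor, was the 1 member that fell. Its counts were 1641 and 1430 in SYK WT and 368 and 369 in SYK KO, 59.0 ± 1.16 CPM against 19.0 ± 1.58 CPM (SD, n = 2). The replicates of each group were close, and the 3.11-fold difference was many times their spread (log2 fold change -1.64, SE 0.16, adjusted p = 0.00137). Without any 1 library it stayed between -1.71 and -1.62. Fn14 is a receptor of fibroblasts and other non-immune cells more than of leukocytes. The summed fibroblast markers, mostly *Col1a1* and *Col3a1*, were 12822 and 14736 CPM in SYK WT against 4098 and 5042 CPM in SYK KO. Of the 8 markers, 6 were called lower. *Dcn* overlapped between the groups (log2 fold change -0.28, adjusted p = 0.503) and *Lum* did not pass (-0.63, adjusted p = 0.115). The part of the fibroblast marker differences in *Tnfrsf12a* was not tested.

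The remaining receptors did not pass the threshold. Among the receptors of T cell co-stimulation, *Tnfrsf9* (4-1BB) was abundant with 1643, 1966, 1606 and 937 counts, and its groups overlapped (log2 fold change -0.12, adjusted p = 0.741). *Tnfrsf4* (OX40) had 37, 43, 36 and 36 counts (0.26, adjusted p = 0.714), and *Tnfrsf14* (HVEM) had 235, 170, 256 and 159 (0.45, adjusted p = 0.276). *Tnfrsf18* (GITR) had 114 and 159 counts against 70 and 46, lower in both SYK KO libraries without passing (-0.84, adjusted p = 0.152), and 21.9% of its 31-base words are shared with the overlapping gene *Gm16008*.

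In 3 others the SYK KO libraries were far apart. *Tnfrsf25* (DR3) had 22 and 24 counts in SYK WT and 1 and 32 in SYK KO, so M9 and M10 lay on opposite sides (log2 fold change -0.0021, adjusted p = 0.999). *Tnfrsf8* (CD30) had 2, 11, 23 and 4 counts (1.37, adjusted p = 0.373) and *Tnfrsf19* (TROY) had 51, 88, 91 and 29 (0.15, adjusted p = 0.873), and in both genes the groups overlapped. *Tnfrsf10b*, the mouse TRAIL death receptor, had 540 and 384 counts in SYK WT and 233 and 230 in SYK KO. It was lower in both SYK KO libraries, missed the threshold with TMM (-0.57, adjusted p = 0.0927) and passed with library size only (-1.11, adjusted p = 0.0132).

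**Figure D2:**
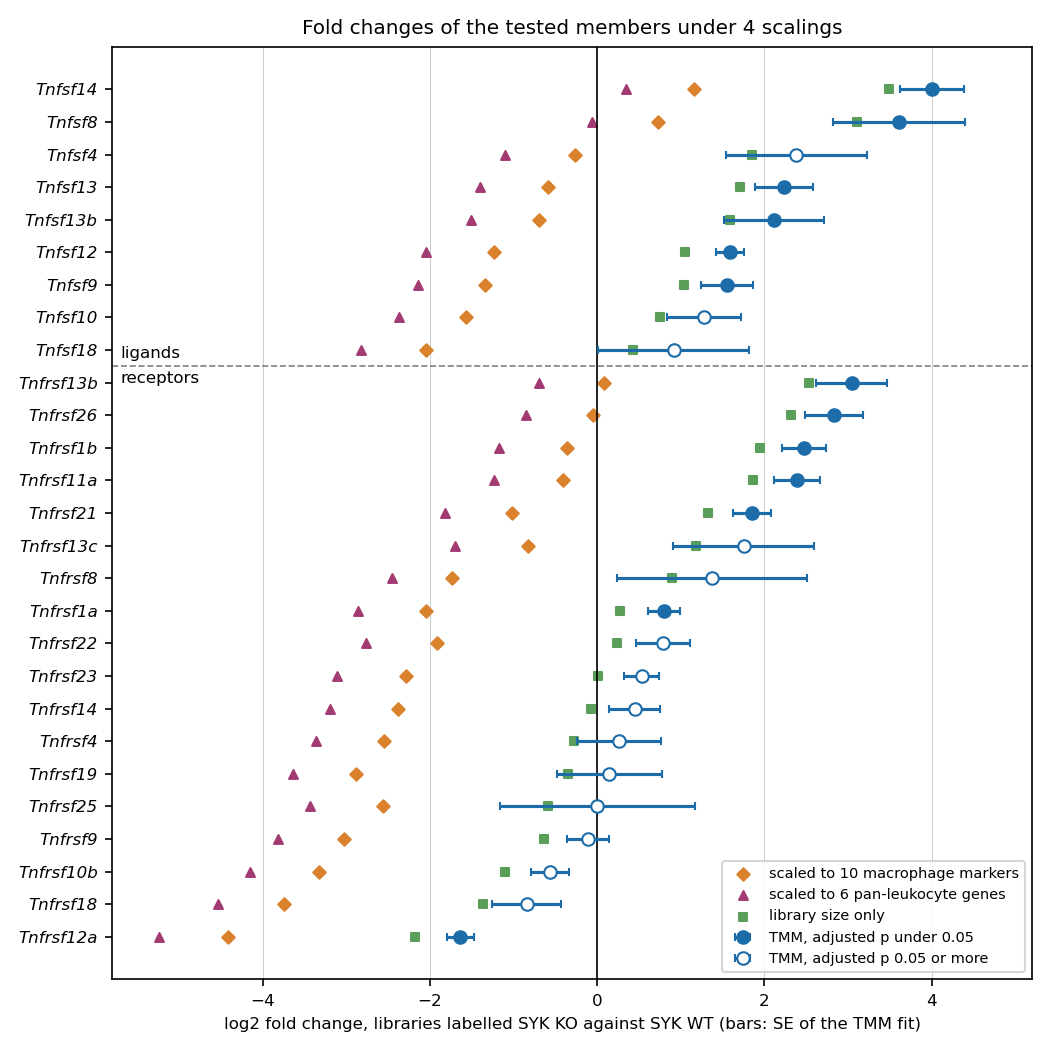
Log2 fold change, libraries labelled SYK KO against SYK WT, of the 27 tested members (rows; ligands above the dashed line, receptors below), by TMM with bars for its standard error (filled: adjusted p under 0.05) and by 3 other scalings without bars. Each other scaling shifts all members to the left by nearly the same amount, so their order under it follows from that under TMM, with *Tnfsf14* farthest to the right and *Tnfrsf12a* farthest to the left.

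The zero of these fold changes was set by the scaling. Library size alone shifted the median log2 fold change of all genes to -0.52, scaling to the 10 macrophage markers to -2.78 and scaling to the 6 pan-leukocyte genes to -3.60. The median of the tested members moved from 1.37 with TMM to 0.89, -1.57 and -2.37, a shift close to that of all genes. Calls among the members went from 12 higher and 1 lower with TMM to 9 and 3, 0 and 13, and 0 and 19. Over all genes tested, library size alone called 10.2% higher and 32.9% lower, the macrophage scaling 0.766% and 87.0%, and the leukocyte scaling 0.334% and 92.8%, so the lower calls of members under the marker scalings were a smaller share than those of all genes. Under the macrophage scaling *Tnfsf14*, *Tnfsf8* (0.72) and *Tnfrsf13b* (0.08) kept a log2 fold change above 0, and under the leukocyte scaling *Tnfsf14* alone did.

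Ratios of 2 genes counted in the same library do not depend on any scaling. A ratio can still change with the mix of cells, and the part of the marker differences in these ratios was not tested. Of 20 textbook pairs of ligand and receptor, 5 had both partners called higher, 1 had the ligand higher and the receptor lower, 4 had a higher ligand with a receptor that did not pass, 2 had a higher ligand with a receptor below the filter, 1 had a higher receptor only and 7 had neither. The ratio of ligand to receptor counts was computed for the 15 pairs with both partners tested. It was above SYK WT in both SYK KO libraries for 10 pairs, below it for 1 and overlapping for 4. These 10 include *Tnfsf4* to *Tnfrsf4* and *Tnfsf8* to *Tnfrsf8*, whose ligands passed the filter only through SYK KO, where they were higher. Their place among the 15 thus favoured a higher ratio, and several pairs share a ligand. These ratios are descriptions with no test, since 2 libraries against 2 cannot give an exact two-sided permutation p below 0.333. How often other pairs of genes separate in this way was not computed. Single genes often did, with 38.0% of all genes tested above and 37.2% below under TMM.

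The TWEAK pair moved apart. The count ratio of *Tnfsf12* to *Tnfrsf12a* was 0.333 in M7 and 0.322 in M8 but 3.47 in M9 and 2.69 in M10, 9.33-fold higher. Compared per length, *Tnfsf12* was below its receptor in SYK WT (12.8 ± 0.571 against 30.5 ± 0.599 CPM per kb of exon, SD, n = 2) and above it in SYK KO (38.3 ± 3.75 against 9.83 ± 0.820 CPM per kb). The order of ligand and receptor was thus opposite in the 2 groups.

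The LIGHT pair showed the largest ratio difference. For *Tnfsf14* to *Tnfrsf14* the ratio was 0.102 and 0.118 in SYK WT and 1.33 and 1.23 in SYK KO, 11.7-fold higher, and per length the ligand went from 0.457 ± 0.0234 to 7.37 ± 2.25 CPM per kb while HVEM was at 5.38 ± 0.811 and 7.33 ± 1.85 CPM per kb (SD, n = 2). Against its other receptor, *Ltbr*, the ratio was 0.0212 and 0.0200 in SYK WT and 0.215 and 0.170 in SYK KO. *Tnfsf9* to *Tnfrsf9* gave 0.155 and 0.120 against 0.456 and 0.385, with *Tnfrsf9* itself near equal in both groups. The TRAIL ligand to its death receptor (*Tnfsf10* to *Tnfrsf10b*) gave 0.0722 and 0.107 against 0.365 and 0.270. These ligands had separate groups in the ratio to at least 1 receptor.

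Some ratios were not above SYK WT in both SYK KO libraries, those of BAFF and APRIL among them. *Tnfsf13b* to *Tnfrsf13b* was the 1 ratio below SYK WT in both SYK KO libraries, with 0.321 and 0.121 against 0.0960 and 0.113, a narrow separation in which M7 stood far from M8. *Tnfsf13* to *Tnfrsf13b* was 2.61, 0.934, 0.837 and 0.942 and overlapped. So did *Tnfsf13b* to *Tnfrsf13c* (1.8, 1.57, 6 and 1.09 in M7 to M10). Overlap was also seen for *Tnfsf10* to *Tnfrsf22* (0.220, 0.336, 0.509 and 0.290) and *Tnfsf18* to *Tnfrsf18* (0.123, 0.0629, 0.429 and 0.109). Among receptors, the ratio of *Tnfrsf1b* to *Tnfrsf1a* was 0.298 and 0.233 in SYK WT and 0.906 and 0.779 in SYK KO, 3.18-fold higher, a pair chosen after its values were seen. Over the whole family, summed ligand counts were 0.102 and 0.0938 of summed receptor counts in SYK WT and 0.187 in each SYK KO library.

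**Figure D3:**
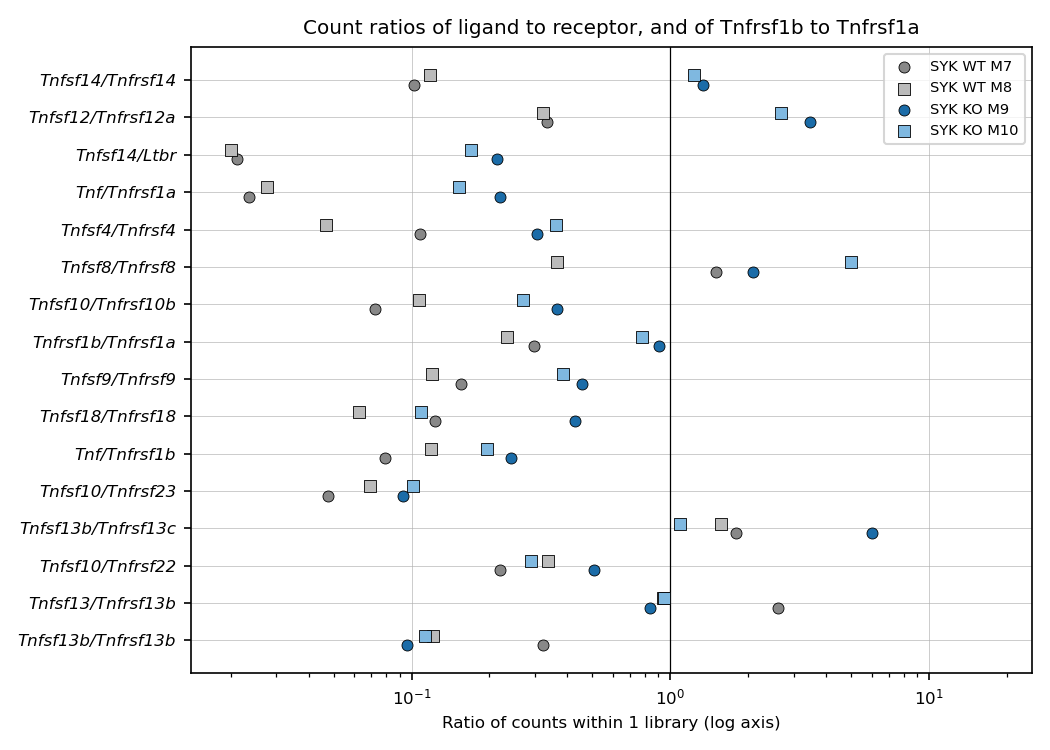
Ratio of counts within 1 library (log axis, vertical line at 1) for 15 pairs of ligand and receptor and for *Tnfrsf1b* to *Tnfrsf1a*, 1 symbol per library, grey for SYK WT and blue for SYK KO. The ratios of *Tnfsf14* to *Tnfrsf14* and of *Tnfsf12* to *Tnfrsf12a* lie below 1 in both SYK WT libraries and above 1 in both SYK KO libraries.

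Levels can be compared between members only per length. In SYK WT the highest were *Tnfrsf1a* (45.5 ± 0.171 CPM per kb of exon, SD, n = 2), *Tnfrsf12a* (30.5 ± 0.599), *Tnfrsf9* (25.7 ± 5.22) and *Tnfsf12* (12.8 ± 0.571). *Tnfrsf12a* and *Tnfrsf9* were not separated beyond the spread of *Tnfrsf9*. In SYK KO they were *Tnfrsf1a* (79.0 ± 15.8), *Tnfrsf1b* (45.6 ± 13.8), *Tnfsf12* (38.3 ± 3.75), *Tnfrsf9* (23.7 ± 6.99) and *Tnfsf9* (21.4 ± 8.70), and neighbours in this order overlapped within 1 SD except *Tnfrsf1a* against *Tnfrsf1b* and *Tnfsf12* against *Tnfrsf9*. *Tnfrsf12a* went from rank 2 to rank 8 of 31, *Tnfrsf1b* from 5 to 2 and *Tnfsf14* from 19 to 12. *Tnfsf11*, *Tnfsf15* and *Tnfrsf11b* were among the lowest in both groups, each with a mean of 0.0935 CPM per kb or less.

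**Figure D4:**
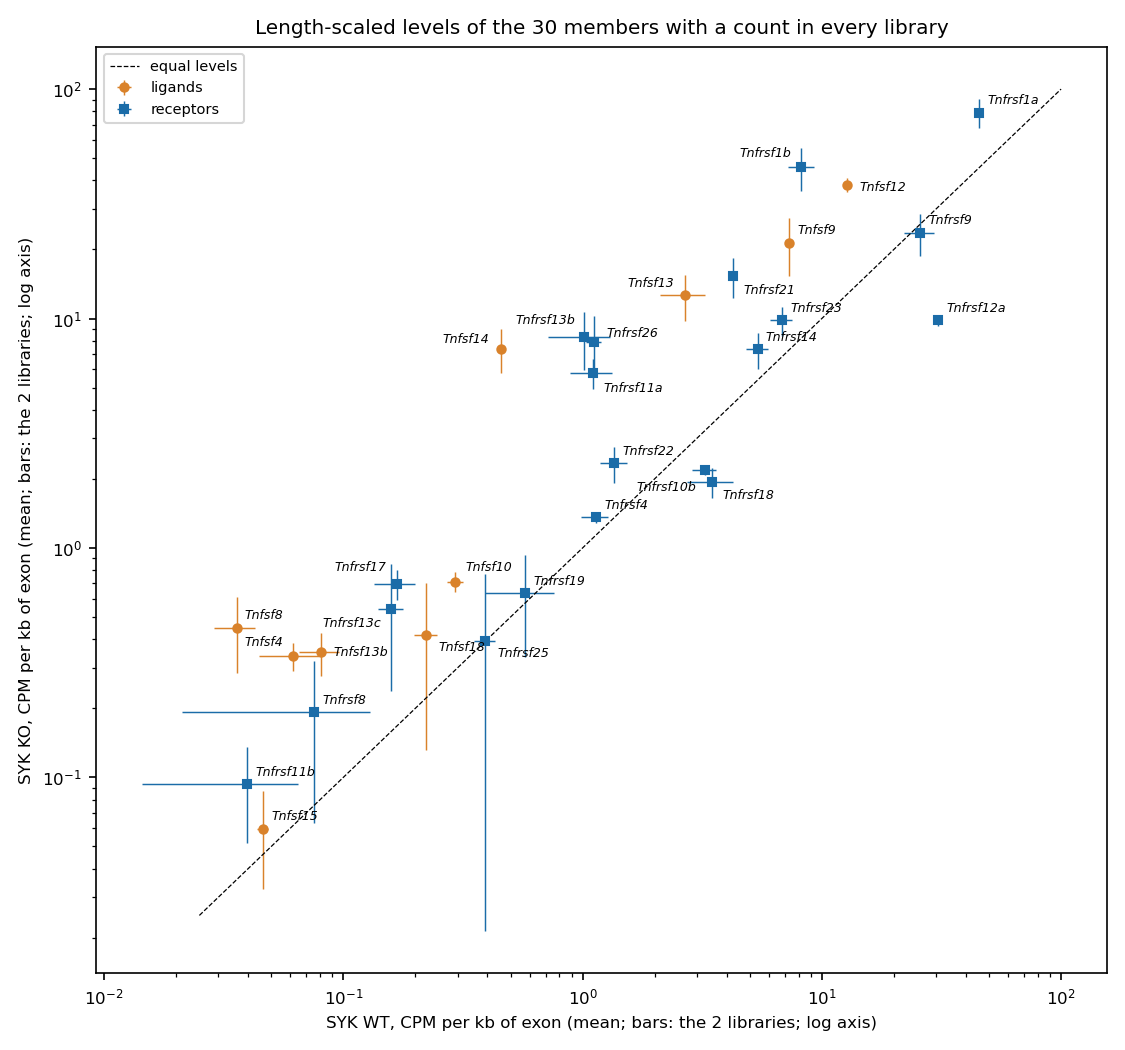
Mean level in SYK KO against SYK WT in CPM per kb of exon (log axes) of the 30 members with a count in every library (*Tnfsf11* is left out), ligands as circles and receptors as squares, with bars from the lower to the higher library. *Tnfsf14* stands farthest above the line of equal levels and *Tnfrsf12a* farthest below it, positions that hold for TMM normalization.

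Family genes under other symbols, listed as 7 ligands and 8 receptors, included 7 called higher under TMM and none under the marker scalings. The share of all genes tested that was called higher under TMM was 22.7%. Both ligands that passed the filter were higher: *Tnf*, the founding cytokine, with 76, 80, 1054 and 491 counts (log2 fold change 3.69, SE 0.36, adjusted p = 0.00135) and *Ltb*, lymphotoxin beta, with 9, 11, 85 and 68 (3.32, SE 0.53, adjusted p = 0.00518). The 5 below the filter included *Cd40lg* and *Fasl*, products of activated T cells, with 0 counts in all libraries and 1 to 5 counts. Of the 8 receptors, 7 were tested and 5 were higher. They were *Cd40* (3.27, adjusted p = 0.00397), which receives T cell help, *Ngfr* (2.30, adjusted p = 0.0194), *Relt* (1.85, adjusted p = 0.00326), the death receptor *Fas* (1.71, adjusted p = 0.0135) and *Ltbr* (0.77, adjusted p = 0.0141). *Tnf* per count of *Tnfrsf1a* was 0.0234 and 0.0277 in SYK WT and 0.219 and 0.152 in SYK KO, so this ratio too was separate between the groups.

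Of 19 genes that carry or limit signals from these receptors, all passed the filter, 10 were called higher, 1 was lower and 8 did not pass, and their median was 0.56 on the log2 scale. Over all genes tested under TMM, 22.7% were called higher and 16.7% lower. Higher were the adaptors *Traf1* (2.55, adjusted p = 0.00161), *Traf3* (0.72, adjusted p = 0.0178) and *Traf5* (1.82, adjusted p = 0.0167), the A20 gene *Tnfaip3* (2.34, adjusted p = 0.00203), which restrains NF-kB, the death-signalling genes *Casp8* (1.88, adjusted p = 0.00350), *Fadd* (0.95, adjusted p = 0.0234) and *Ripk1* (0.96, adjusted p = 0.00901), *Birc3* (1.16, adjusted p = 0.00834), *Sharpin* (0.56, adjusted p = 0.0336) and *Adam17* (1.50, adjusted p = 0.00388), the protease that sheds TNF. *Birc2*, which encodes the ubiquitin ligase cIAP1, was lower, with 1314 and 1214 counts in SYK WT and 429 and 487 in SYK KO (-1.04, adjusted p = 0.00711). *Birc2* and its paralog *Birc3* thus had opposite signs under TMM. With library size only, 6 of the 19 were called higher and 4 lower, and under the marker scalings none was higher.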

How the data were processed

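The authors aligned the reads to mm10 (STAR 2.6.1d in the submitters' processing notes), estimated transcript abundance with Salmon 1.4.0 under bcbio, and deposited whole-number read counts per Ensembl gene, without normalization, for 4 libraries. How whole numbers were made from Salmon's estimates is not given in the sources used here. The labels describe paired reads on a NovaSeq, and the paper single reads on a HiSeq.

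Symbols, positions and exon lengths came from GENCODE M21 on GRCm38, which matched 54495 of 54532 genes. The members and lists were chosen with earlier results of these data known. Counts were compared in R 4.3.3 with edgeR 4.0.16 (filterByExpr, TMM factors 1.22, 1.19, 0.876 and 0.787 for M7 to M10, glmQLFit and glmQLFTest, Benjamini-Hochberg adjustment over 16451 genes, threshold 0.05), with the genotype label as the only term. Values are CPM with the SD of 2 libraries. Libraries of one label differed beyond sampling noise (chi-square per degree of freedom 50.6 in SYK WT and 168 in SYK KO). Intervals and floors cover counting error only, since without molecular identifiers a read is not an independent molecule. Every member is named, with full statistics for those with an adjusted p under 0.05. Alternatives were the DESeq2 1.42.0 Wald test and size factors, library size only, 10 macrophage markers or 6 pan-leukocyte genes as the scale, genes with at least 1 count or at least 10 counts in every library, each library left out in turn and, after the data were seen, summed rows of genes that share sequence. The edgeR steps were checked on simulated counts with few genes changed, equally up and down, and a small fixed spread. That check does not cover the choice of scaling or the spread seen here. The study's other experiments were not analysed here.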

Additional observations from a re-analysis of the deposited data

How the results depend on the processing

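Of the 27 tested members, all kept direction and call under the DESeq2 Wald test, DESeq2 size factors and a test of all genes with at least 1 count. With at least 10 counts in every library, 20 did and *Tnfsf10* passed the threshold, while 6 were not tested, *Tnfsf4*, *Tnfsf8* (called with TMM), *Tnfsf18*, *Tnfrsf8*, *Tnfrsf13c* and *Tnfrsf25*. The 6 ligands higher under that filter are thus not the 6 of the main result. Of the 4 members below the filter, none passed when all genes with a count were tested.

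Library size only gave 1677 genes higher and 5411 lower, 3 receptors lower, and 6 signalling genes higher and 4 lower. It lost 3 calls, as given with *Tnfsf9*, *Tnfsf13b* and *Tnfrsf1a*, and turned the log2 fold changes of *Tnfrsf4* (-0.27), *Tnfrsf14* (-0.077), *Tnfrsf19* (-0.35). The macrophage scaling gave 126 genes higher and 14313 lower. It gave 0 ligands higher and 2 lower, 0 receptors higher and 11 lower, 0 family genes with other symbols higher and 3 lower, and 0 signalling genes higher and 15 lower, with *Syk* at -0.0064. Turned by it were *Tnfrsf1a* (-2.05), *Tnfrsf1b* (-0.37), *Tnfrsf4* (-2.55), *Tnfrsf8* (-1.74), *Tnfrsf11a* (-0.41), *Tnfrsf13c* (-0.83), *Tnfrsf14* (-2.39), *Tnfrsf19* (-2.88), *Tnfrsf21* (-1.02), *Tnfrsf22* (-1.92), *Tnfrsf23* (-2.29), *Tnfrsf26* (-0.047), *Tnfsf4* (-0.26), *Tnfsf9* (-1.35), *Tnfsf10* (-1.57), *Tnfsf12* (-1.23), *Tnfsf13* (-0.59), *Tnfsf13b* (-0.69), *Tnfsf18* (-2.05). The leukocyte scaling gave 55 genes higher and 15270 lower. It gave 0 ligands higher and 5 lower, 0 receptors higher and 14 lower, 0 family genes with other symbols higher and 5 lower, and 0 signalling genes higher and 19 lower, with *Syk* at -0.83 (adjusted p = 0.0303). Turned by it were *Tnfrsf1a* (-2.86), *Tnfrsf1b* (-1.18), *Tnfrsf4* (-3.37), *Tnfrsf8* (-2.46), *Tnfrsf11a* (-1.23), *Tnfrsf13b* (-0.70), *Tnfrsf13c* (-1.70), *Tnfrsf14* (-3.20), *Tnfrsf19* (-3.64), *Tnfrsf21* (-1.82), *Tnfrsf22* (-2.77), *Tnfrsf23* (-3.11), *Tnfrsf26* (-0.85), *Tnfsf4* (-1.11), *Tnfsf8* (-0.058), *Tnfsf9* (-2.14), *Tnfsf10* (-2.37), *Tnfsf12* (-2.05), *Tnfsf13* (-1.41), *Tnfsf13b* (-1.51), *Tnfsf18* (-2.82). These scalings hold the chosen markers near equal by construction.

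With each library left out in turn, 1478 to 5010 genes were higher and 807 to 4745 lower, 4 to 8 ligands were higher, 5 to 8 receptors were higher and 1 to 4 lower, 3 to 7 family genes with other symbols were higher, and 5 to 11 signalling genes were higher and 0 to 1 lower. Losing either SYK WT library cost the calls of *Tnfsf8*, *Tnfsf13b* and *Tnfrsf1a*. Losing M9 or M10 added calls in both directions, among all genes as well as among the members. The lone library was then assumed to vary like the other group. The log2 fold change changed sign for *Tnfrsf8* (-0.31 to 3.10), *Tnfrsf9* (-0.54 to 0.17), *Tnfrsf19* (-0.87 to 0.72), *Tnfrsf25* (-4.04 to 0.88) and *Tnfsf18* (-0.83 to 1.67). The cause of these changes was not tested. No paired analysis was possible because the groups share no replicate number. Below about 10 counts a library, as in *Tnfsf4*, *Tnfsf8*, *Tnfsf15*, *Tnfrsf11b* and *Tnfrsf17*, depth limits what could be detected.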
